A study of Homo sapiens with 3 samples.

Results

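NF-kB is a family of transcription factors that act as dimers of Rel proteins. In resting cells the dimers are held in the cytoplasm by inhibitor proteins of the IkB family. When a receptor is engaged, the IkB kinases phosphorylate the inhibitors, the proteasome degrades them, and the released dimers move to the nucleus and switch on genes of inflammation and survival, among them genes of their own inhibitors. In the alternative route the kinase CHUK acts on the NFKB2 precursor, which the proteasome then trims to its active form. Basal-like breast cancer lines such as MDA-MB-231 are known for NF-kB activity without added stimulus.

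The transcripts of 10 genes of this pathway were examined, out of 22824 genes in the files. These were the 5 subunit genes NFKB1, NFKB2, REL, RELA and RELB, the 3 inhibitor genes NFKBIA, NFKBIB and NFKBIE, and the 2 kinase genes IKBKB and CHUK. They were chosen by gene symbol, and the count of a gene was that of its transcript record with the largest total. The libraries were 3 biological replicates of 1 group, MDA-MB-231 cells transfected with a control siRNA. MDA-MB-231 is a human triple-negative breast cancer line that carries the p53 missense change R280K, per the labels. Cells received 50 nM siRNA on 2 occasions 24 h apart and were harvested 48 h after the second. The arm of the study with p53 siRNA is not analysed here, so no effect of a treatment was tested, and the libraries give the levels of the 10 genes in the control state and their spread between cultures.

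Gene counts summed to 54512146 to 84880259 per library. Of the 5 genes taken as markers of the line, VIM, AXL, CD44, MSN and ANXA1, all 5 were detected, and their summed level was 7076 to 7368 TPM over the libraries. ESR1, PGR and CDH1, which are low in this line, summed to 0.473 to 0.930 TPM. The 4 endothelial markers summed to 2.16 to 2.41 TPM, with 2 detected and KDR the highest at 1.14 TPM. The 4 fibroblast markers summed to 7.69 to 9.33 TPM, with 2 detected, COL1A1 the highest at 6.37 TPM and DCN at 0 counts. In RNA from whole cultures, fewer cells that transcribe a gene and less RNA per cell cannot be told apart.

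Several genes of the family are textbook targets of NF-kB itself, so their RefSeq promoters (build GRCh38.p14, 250 bases before to 50 bases after the annotated start) were searched on both strands for a common form of the NF-kB binding site, GGG, any 2 bases and then TTTCC. Promoters were given for 7 of the 10 genes, and 5 of these 7 held a match in at least 1 of their promoters. In the same source, 2.33% of all 27305 genes held one. By promoter, 6 of the 12 promoters of these genes held a match, against 1.91% of all 35116. No match was found in the promoters of RELA and CHUK. The 6 matches are shown because 4 of them share 1 form of the motif while lying in genes that span the range of levels below. Each is printed in the direction of the gene with 10 bases on either side, and capitals mark the motif.
NFKBIA, chr14:35404811-35404840, minus strand: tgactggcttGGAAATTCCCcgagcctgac
NFKB1, chr4:102501300-102501329, plus strand: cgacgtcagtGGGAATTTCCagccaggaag
REL, chr2:60881518-60881547, plus strand: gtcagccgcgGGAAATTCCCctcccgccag
NFKBIB, chr19:38899931-38899960, plus strand: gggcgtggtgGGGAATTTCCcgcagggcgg
NFKB2, 1 promoter, chr10:102394490-102394519, plus strand: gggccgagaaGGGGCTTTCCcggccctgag
NFKB2, another promoter, chr10:102395674-102395703, plus strand: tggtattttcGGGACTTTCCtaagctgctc

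The matches of NFKBIA and REL read GGAAATTCCC, the other strand of the GGGAATTTCC found in NFKB1 and NFKBIB. They begin 81 bases before the annotated start in NFKBIA, 49 bases in NFKB1, 46 bases in REL and 28 bases in NFKBIB. The 2 matches of NFKB2 begin 78 and 21 bases before the starts of separate promoters. A match is a description of the letters and shows no binding.

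All 10 genes were transcribed at 1 CPM (a gene's share of the library's counts, scaled by edgeR's TMM) or more in each library, against 55.6% of all genes. Their median level was 5.09 ± 0.08 in log2(TPM + 1) (SD, n = 3), beside 4.59 ± 0.02 for all detected genes. By mean TPM, 9 of the 10 lay above the median detected gene. NFKBIE, RELB and NFKBIB did so only barely, at percentiles 50.2, 50.4 and 51.4 of the detected genes. TPM (a share of all transcripts, which corrects a count for the length of its transcript) is the scale on which genes are compared here. NFKBIA was the highest of the 10 in each library and REL the lowest.

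**Figure D1:**
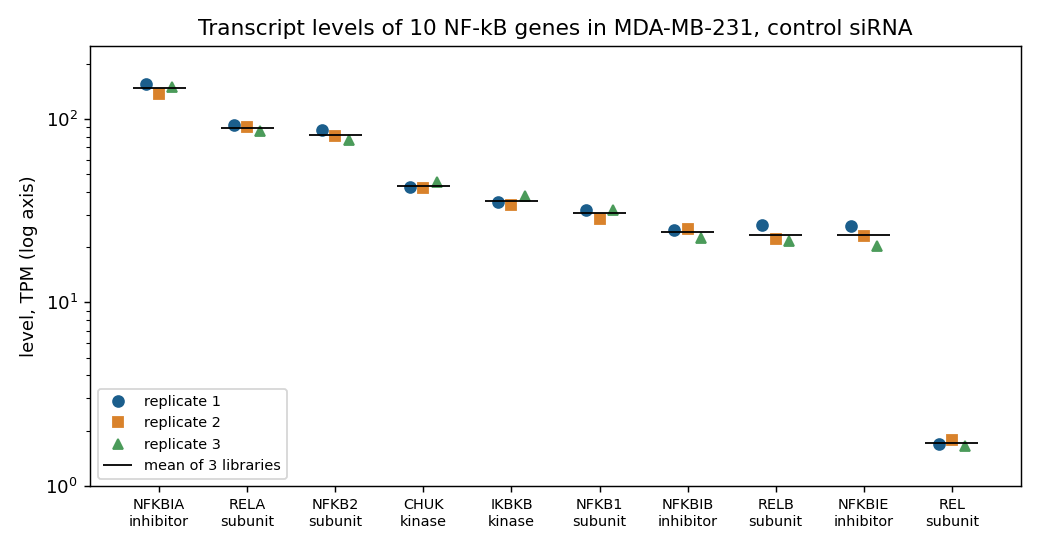
Level of each of the 10 genes in TPM (log axis) in replicates 1, 2 and 3, with the mean of the 3 libraries as a line; genes run from the highest mean to the lowest and their role is under the name. NFKBIA stands at 137 to 154 TPM (154.5 in replicate 1), 8 genes between 20.4 and 92.6 TPM, and REL near 1.7 TPM.

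Among the subunits, RELA and NFKB2 were the most abundant. RELA encodes p65, which carries the transactivation domain of the most common NF-kB dimer, and it was at 92.6, 90.3 and 86.1 TPM in replicates 1, 2 and 3, a mean of 89.7 ± 3.29 TPM (SD, n = 3). NFKB2 encodes the precursor p100, which holds RELB-containing dimers until it is processed to p52, and it was at 87.2, 80.6 and 76.6 TPM, a mean of 81.5 ± 5.34 TPM. RELA exceeded NFKB2 in each library, but their ranges over libraries overlapped, and in CPM NFKB2 had the higher mean. NFKB1 encodes p105, the precursor of p50, the usual partner of p65. It was at 31.7, 28.6 and 31.8 TPM, a mean of 30.7 ± 1.80 TPM, with replicate 2 the lowest.

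RELB, the partner of p52 in the alternative route, was at 26.3, 22.1 and 21.6 TPM, a mean of 23.3 ± 2.59 TPM, highest in replicate 1. REL encodes c-Rel, a subunit known chiefly from lymphocytes, and it was at 1.68, 1.78 and 1.65 TPM, a mean of 1.70 ± 0.06 TPM, on 544, 718 and 422 counts. REL took 0.753 ± 0.05% of the summed TPM of the 5 subunits, where RELA took 39.6 ± 0.88%, NFKB2 35.9 ± 0.63%, NFKB1 13.5 ± 0.94% and RELB 10.3 ± 0.63%. The level of REL depends on its transcript length: the matched transcript of 11255 bases has a long last part that overlaps another annotated RNA, AC010733.2, over 5702 exon bases. With the shortest protein-coding transcript of 1000 bases or more (2398 bases for REL), REL was at 5.72 ± 0.249 TPM. REL was the lowest of the 10 genes on both lengths and in CPM, where it stood at 7.95, 8.47 and 7.71 in replicates 1, 2 and 3.

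Subunits that pair with each other differed in level. RELA exceeded NFKB1 by 1.52 ± 0.11 in log2(TPM + 1), a ratio of means of 2.92, and the difference was positive in 3 of 3 libraries. RELB lay below NFKB2 by a difference of -1.76 ± 0.07, with NFKB2 3.49 times as high. REL lay below RELA by a difference of -5.07 ± 0.05, and by -4.27 with the shortest transcripts. Summed, NFKB1, RELA and REL of the canonical route were at 126, 121 and 119 TPM (119.5 in replicate 3), against 113.5, 103 and 98.2 TPM for NFKB2 and RELB of the alternative route. That difference was 0.22 ± 0.07, positive in 3 of 3 libraries, and with the shortest transcripts it was 1.07. For such differences within libraries an exact paired permutation test over 3 libraries cannot give a two-sided p under 0.25, so none was run.

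Of the inhibitors, NFKBIA was far above the others. NFKBIA encodes IkB-alpha, the inhibitor that NF-kB itself induces in a fast feedback, and it was at 154.5, 137 and 150.2 TPM in replicates 1, 2 and 3, a mean of 147 ± 8.98 TPM. NFKBIB encodes IkB-beta, which binds mainly dimers that contain p65 or c-Rel, and it was at 24.9, 25.2 and 22.6 TPM (24.95 in replicate 1), a mean of 24.2 ± 1.48 TPM. NFKBIE encodes IkB-epsilon, a further inducible inhibitor, and it was at 26.2, 23.0 and 20.4 TPM, a mean of 23.2 ± 2.91 TPM. NFKBIA thus made up 75.6 ± 1.94% of the summed TPM of the 3 inhibitors, with its lowest share, 74.0%, in replicate 2. It exceeded NFKBIB by 2.55 ± 0.14 and NFKBIE by 2.62 ± 0.17 in log2(TPM + 1), in 3 of 3 libraries each.

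NFKBIA also exceeded RELA, by 0.71 ± 0.10 in 3 of 3 libraries. This order rests on the correction for length, since NFKBIA has a transcript of 1558 bases and RELA one of 2700 bases. In CPM the difference was -0.08, and with the shortest transcripts -0.14. The 3 inhibitors together were at 206, 185.5 and 193 TPM, against 239, 223 and 218 TPM for the 5 subunits. The difference, inhibitors minus subunits, was -0.22 ± 0.05, negative in 3 of 3 libraries, and its mean was -1.11 in CPM and -0.63 with the shortest transcripts.

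The catalytic subunits of the IkB kinase complex were closer to each other. CHUK encodes IKK-alpha, the kinase of the alternative route, and it was at 42.6, 41.8 and 45.2 TPM, a mean of 43.2 ± 1.76 TPM. IKBKB encodes IKK-beta, which phosphorylates the inhibitors in the canonical route, and it was at 35.2, 34.0 and 38.0 TPM, a mean of 35.7 ± 2.06 TPM. Replicate 3 was the highest for both. IKBKB lay below CHUK by a difference of -0.27 ± 0.02 in 3 of 3 libraries, and by -0.15 in CPM, but with the shortest transcripts the difference was 0.43 in favour of IKBKB.

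In the order of mean TPM, the ranges of neighbouring genes overlapped between RELA and NFKB2, between NFKBIB and RELB, and between RELB and NFKBIE. The other 6 neighbouring pairs did not overlap. NFKBIB, RELB and NFKBIE therefore could not be ranked in TPM, since their means differed by less than the spread between libraries. In CPM, NFKBIB was below RELB in 3 of 3 libraries, and their ranges did not overlap. The genes nearest to NFKBIA in level over the 3 libraries, by the sum of squared differences in log2(TPM + 1), were BMP4 at 148 ± 7.89, CNOT1 at 146 ± 11.2 and CRIM1 at 147 ± 4.47 TPM. Those nearest to RELA were PES1 at 90.2 ± 3.05, STX5 at 90.1 ± 2.86 and MYL6B at 89.2 ± 2.62 TPM (89.15 unrounded). With 1 group, this likeness is one of level alone.

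**Figure D2:**
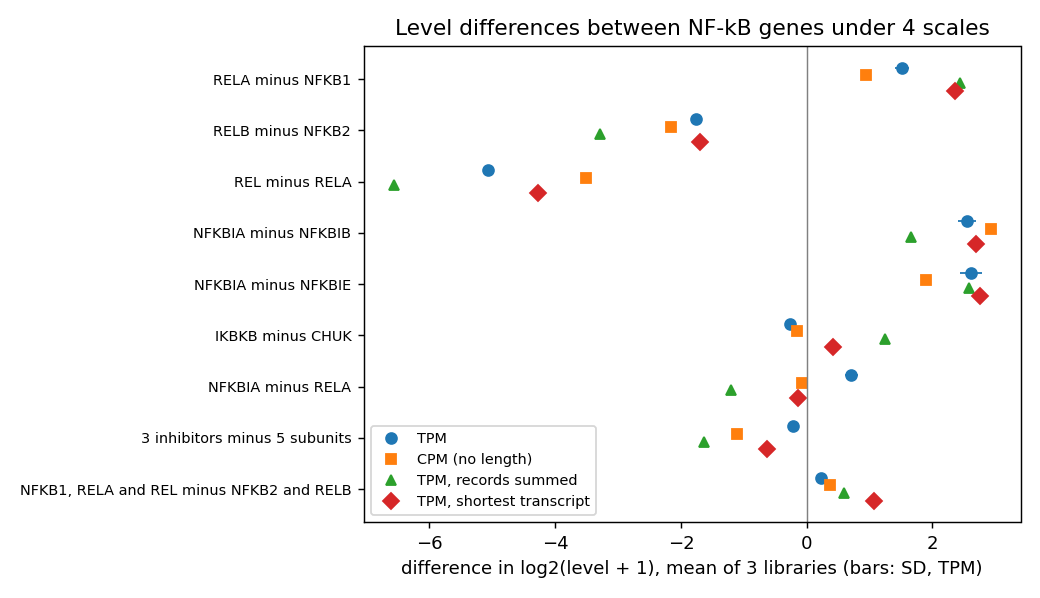
Differences in log2(level + 1) between pairs and groups of the 10 genes, as the mean of 3 libraries, in TPM, in CPM, in TPM with the counts of all records of a gene summed, and in TPM with the shortest protein-coding transcript; bars give the SD for TPM. NFKBIA minus RELA and IKBKB minus CHUK lie on both sides of 0, and the other 7 differences keep their side.

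Where a gene had several records, these held almost the same counts in NFKB1, NFKB2 and IKBKB and differed more in RELA and NFKBIB. The 2 records of NFKB1 (3712 and 3714 counts in replicate 1) and the 3 of NFKB2 were at 99.66% or more of the largest. The 3 records of IKBKB were at 97.16% or more of the largest. RELA had 4 records, and the 2 lowest, NM_001243985 and NM_001243984, stood at 90.0% to 92.01% of the largest, NM_021975. In NFKBIB the record NM_001243116 held 87.5%, 86.2% and 89.0% of the counts of NM_002503. Counts per record do not separate isoforms when records share exons. For NFKBIB a further record without a gene name, matched by its accession alone, held 1040, 1332 and 809 counts, against 830, 1050 and 593 counts for the record used here. The level and the place of NFKBIB given above leave that record out. The annotated exons of NFKBIB share 40 bases with SIRT2 on the other strand, and those of CHUK share 37 bases with ERLIN1 on the same strand. On the other strand, CHUK also shares 77 bases with AL138921.2 and RELA 9 bases with AP001362.2. Whether the counting used strand is not stated, so reads in the overlaps on the other strand cannot be told apart. In the overlap of CHUK with ERLIN1 strand could not separate the reads.

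Between replicate cultures the 10 genes differed by 1.06-fold to 1.30-fold from the lowest to the highest library in CPM. The widest were NFKBIE at 28.4, 25.1 and 21.8 CPM (25.15 in replicate 2) and RELB at 25.3, 21.5 and 20.5 CPM in replicates 1, 2 and 3. Both were highest in replicate 1 and lowest in replicate 3. The narrowest was CHUK, at 64.7, 64.1 and 67.8 CPM. The coefficient of variation in TPM ran from 3.67% for RELA to 12.6% for NFKBIE.

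Variation beyond counting noise (deviance of an intercept-only edgeR fit against a chi-square, Benjamini-Hochberg over 14468 genes, called at 0.05) was found for 9 of the 10 genes, REL being the exception (adjusted p = 0.342). REL differed 1.099-fold in CPM between libraries, about as NFKB1 did (1.097-fold), but on 422 to 718 counts against 2945 to 4194. Of all genes tested, 52.9% varied, and of the 7764 genes within the range of mean CPM of the 10, 58.5%. The smallest adjusted p values were those of NFKB2 (3.27e-13), NFKBIE (5.08e-11), NFKBIA (2.18e-09) and RELB (6.87e-08). This order is not that of the spread: the coefficient of variation in TPM was 6.56% for NFKB2 and 12.6% for NFKBIE. NFKBIB (adjusted p = 0.0465) and CHUK (adjusted p = 0.0479) were just past the threshold, and with the NFKBIB record matched by accession its adjusted p was 0.450. Genes with exactly 2 counts outnumbered those with 1 in each library (712 against 485 in replicate 1), as when both mates of a pair are counted. With each pair counted once, 6 of the 10 varied, NFKB1, NFKB2, RELA, RELB, NFKBIA and NFKBIE, against 28.5% of all genes and 29% of those in the same range of CPM. With a coefficient of variation of 0.05 between cultures allowed for, edgeR called 0 of the 10 and 1.15% of all genes, and 2 of the 10 had an unadjusted p under 0.05, against 10.7% of all genes.

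For some of the 10 genes this spread moved with base composition. Replicate 3 was low for GC-rich genes: the tested genes in the highest of 10 bins of GC content had a median log2 deviation of -0.09 in replicate 3, 0.06 in replicate 1 and 0.03 in replicate 2. The 5 GC-rich genes RELA, NFKBIE, NFKB2, NFKBIB and RELB, the most GC-rich being RELB at 65.4%, were all lowest in replicate 3. RELA deviated by -0.07 there, where genes of like GC deviated by -0.06. NFKBIE deviated by -0.19 there and by 0.18 in replicate 1, beyond the -0.06 and 0.04 of genes of like GC. REL and IKBKB went against the genes of like GC: in replicate 3 REL deviated by -0.06 where those genes deviated by 0.07, and IKBKB by 0.07 where they deviated by -0.03. After each library's trend with GC was removed, RELA, NFKBIB and CHUK lost the edgeR call (adjusted p = 0.884, 0.709 and 0.458). REL stayed uncalled, and 6 of the 10 varied, NFKB1, NFKB2, RELB, NFKBIA, NFKBIE and IKBKB, against 39.3% of all genes. What the rest of the spread moved with was not tested.

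**Figure D3:**
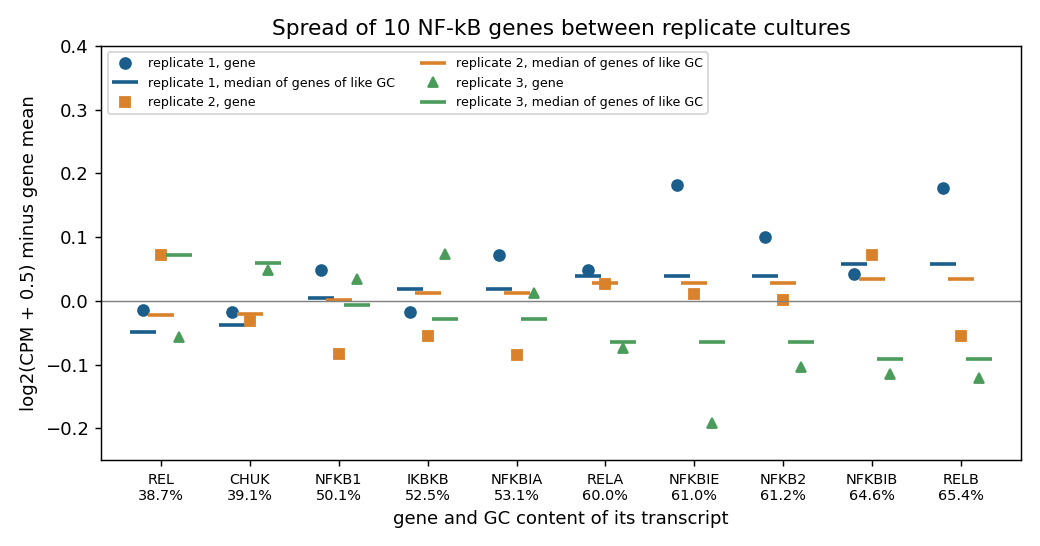
Deviation of each gene from its own mean in log2(CPM + 0.5) in replicates 1, 2 and 3 (points), beside the median deviation of tested genes in the same of 10 bins of GC content (bars), with genes ordered by the GC content of the transcript. In RELA, NFKBIE, NFKB2, NFKBIB and RELB, the 5 genes of highest GC, replicate 3 is the lowest; replicate 3 is also the lowest in REL, and in NFKB1, NFKBIA, IKBKB and CHUK replicate 2 is the lowest.

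NFKB1, NFKBIA, IKBKB and CHUK were lowest in replicate 2 instead. NFKBIA was at 101, 90.5 and 97.0 CPM, NFKB1 at 54.3, 49.5 and 53.8 CPM, while IKBKB and CHUK deviated by -0.06 and -0.03 in replicate 2. Genes with the GC content of NFKBIA deviated there by 0.01, against -0.08 for NFKBIA itself. For NFKB1 (adjusted p = 0.0001471) the call was lost without replicate 2 (adjusted p = 0.739), and for NFKBIA the adjusted p was then 0.0462.

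The other genes of the pathway were taken from 6 lists of 88 genes in all, and 72 of the 88 were detected at 1 CPM or more in each library. Ligands were mostly low, with 4 of 11 detected and a median level of 0.36 ± 0.10 in log2(TPM + 1). TNFSF12, the ligand of the receptor TNFRSF12A, was highest at 24.4 ± 1.04 TPM, followed by the interleukin genes IL18 at 23.5 ± 0.603 TPM (23.55 unrounded) and IL1B at 21.8 ± 3.20 TPM. CD40LG, the T cell ligand of CD40, had 0 counts, which allows up to 0.0877, 0.0708 and 0.110 CPM in replicates 1, 2 and 3 (3 read pairs with both mates counted, counting error only). TNF had 11, 6 and 6 counts, summed over 8 copies of its region in the annotation.

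Receptors were detected for 14 of 15 genes, and TLR2 was the exception. The TNF receptor TNFRSF1A was at 163, 167 and 157 TPM in replicates 1, 2 and 3, and TNFRSF12A, the receptor of TNFSF12, at 168, 170.1 and 142 TPM. The death-domain receptor TNFRSF21 was at 120 ± 4.73 TPM, and TLR2, a sensor of bacterial lipoproteins, at 1.02 ± 0.203 TPM. TLR4, the lipopolysaccharide receptor, was at 28.5 ± 2.30 TPM, and was picked after its value was seen.

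All 17 kinases and adaptors between receptors and the IkB kinases were detected, with a median of 4.42 ± 0.10. IRAK1, a kinase downstream of toll-like and interleukin-1 receptors, was at 239 ± 16.3 TPM, and TAB2, which bridges the kinase MAP3K7 to ubiquitin chains, at 81.5 ± 6.04 TPM (81.55 unrounded). The adaptor TRAF2 was at 35.55 ± 2.999 TPM, and MAP3K8 was lowest at 3.88 ± 0.0953 TPM. In the list of the IKK scaffold, IKK-related genes and atypical inhibitors, 7 of 7 were detected. IKBKG, the scaffold of the IkB kinase complex, was at 61.6, 60.8 and 57.7 TPM, above both catalytic subunits in each library on that scale. This order rests on the correction for length. In CPM IKBKG was at 59.4, 59.2 and 55.0, below CHUK in each library (64.7, 64.1 and 67.8). It was also below IKBKB in replicate 3 (62.0 CPM), but above it in replicates 1 and 2 (58.2 and 56.6 CPM). BCL3, a nuclear IkB protein that binds p50 and p52, was at 47.6 ± 2.93 TPM, NFKBIZ at 28.6 ± 1.69 TPM and NFKBID at 5.09 ± 0.324 TPM. Reads of IKBKG are uncertain, since it has a near-identical partial copy.

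Ubiquitin enzymes and feedback regulators were high as a list, with 14 of 14 detected and a median of 5.51 ± 0.05. TNIP1, which helps the ubiquitin editor TNFAIP3 to restrain NF-kB, was at 307 ± 8.03 TPM. TNFAIP3 itself, the feedback regulator A20, was lowest of the list at 6.12, 5.32 and 5.92 TPM, lowest in replicate 2. UBE2V1, a partner of the enzyme that builds lysine-63 ubiquitin chains, was at 158 ± 4.12 TPM (158.5 unrounded), and SHARPIN, a part of the linear ubiquitin ligase, at 63.5 ± 3.73 TPM.

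**Figure D4:**
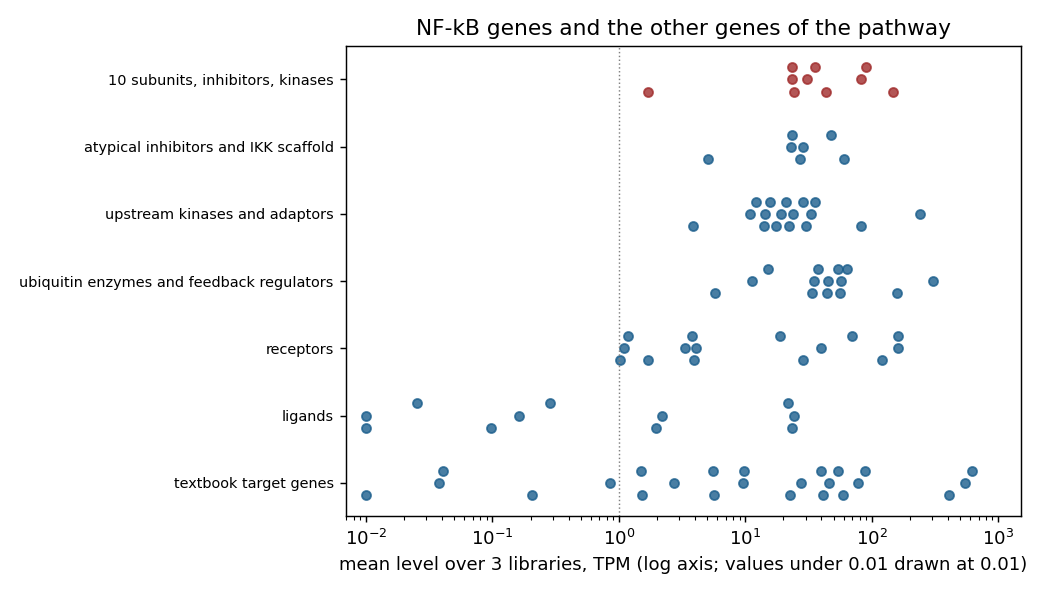
Mean level over 3 libraries in TPM (log axis) of the 10 genes and of the genes of 6 lists of the same pathway, 1 point per gene, with a dotted line at 1 TPM. Adaptors, kinases and regulators lie mostly between 10 and 100 TPM, 8 of 11 ligands under 3 TPM, and target genes from 0 to 617 TPM. The highest, IER3, is summed over 6 copies of its region.

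Of 24 textbook target genes, 16 were detected, with a median of 4.03 ± 0.05. The highest were these 3: IER3, an early response gene, was at 617 ± 21.0 TPM, the urokinase gene PLAU at 543 ± 16.6 TPM and BCL2L1, an inhibitor of apoptosis, at 411 ± 8.86 TPM (411.5 unrounded). IER3 was summed over 6 copies of its region, and with the largest copy alone it was at 149 ± 9.45 TPM (149.5 unrounded). On that count it was below PLAU at 556 TPM and BCL2L1 at 421 TPM, so its first place rests on the sum. SELE, an endothelial adhesion gene, had 0 counts.

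Of the 80 listed genes that could be tested, 50 varied beyond counting noise, against 52.9% of all genes, and 34 with each pair counted once, against 28.5%. With a coefficient of variation of 0.05 allowed for, 4 listed genes varied, against 1.15% of all genes, and all 4 were target genes. The neutrophil chemokine IL8 was at 38.5, 32.9 and 44.5 CPM in replicates 1, 2 and 3 (adjusted p = 0.0386). PTGS2, the prostaglandin synthase COX-2, was at 9.94, 9.42 and 13.0 CPM (adjusted p = 0.0462). Both were lowest in replicate 2 and highest in replicate 3. CXCL3 stood at 117, 85 and 52 counts, highest in replicate 1 per library size (adjusted p = 0.0428), and CCL20 at 36, 69 and 13 counts, highest in replicate 2 (adjusted p = 0.0109). When each pair was also counted once, IL8 (adjusted p = 0.351), PTGS2 (0.707) and CXCL3 (0.912) were not called in the edgeR fit, and CCL20 fell under the filter on low counts.

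**Figure D5:**
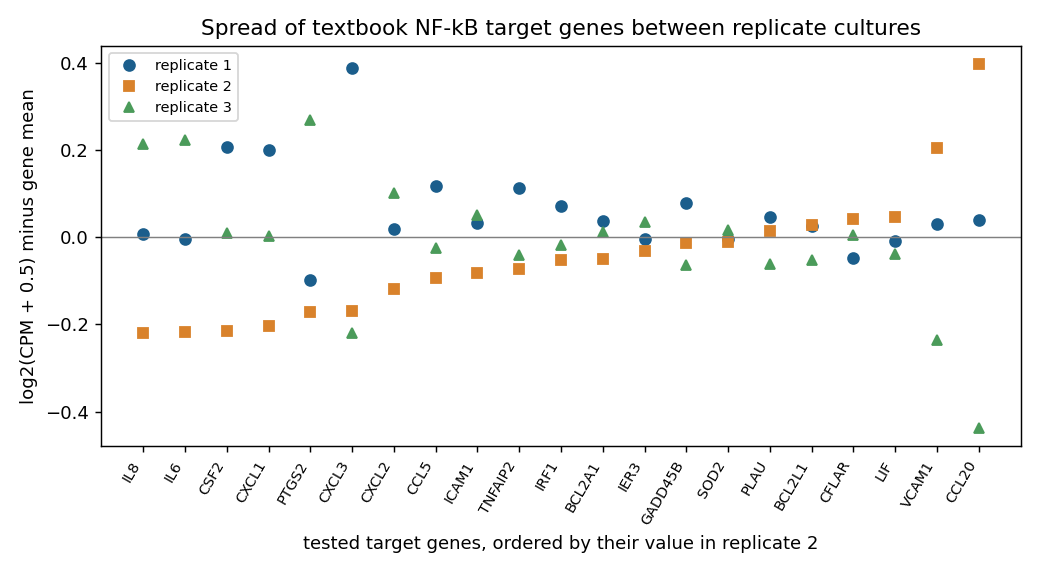
Deviation of each of the 21 tested target genes from its own mean in log2(CPM + 0.5) in replicates 1, 2 and 3, ordered by the value in replicate 2. In 13 of the 21 genes replicate 2 is the lowest library, with IL8 and IL6 at -0.22; BCL2L1, CFLAR, LIF, CCL20 and VCAM1 are highest there.

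Replicate 2 was the lowest library for 13 of the 21 tested target genes, against 29.6% of all tested genes. These were IL8, IL6, CSF2, CXCL1, PTGS2, CXCL2, CCL5, ICAM1, TNFAIP2, IRF1, BCL2A1, IER3 and SOD2. Among them CXCL2, CCL5, BCL2A1 and SOD2 did not vary beyond counting noise in the edgeR fit (adjusted p = 0.269, 0.489, 0.881 and 0.748). The deviation in replicate 2 was -0.22 for IL8, IL6 and CSF2, -0.20 for CXCL1 and -0.08 for ICAM1, and the median over the 21 genes was -0.05, beside 0.00 for all tested genes (0.0021). In the other lists replicate 2 was the lowest library for 7 of 14 ubiquitin enzymes and feedback regulators, 2 of 7 genes of the scaffold list, 3 of 17 kinases and adaptors, 3 of 15 receptors and 1 of 6 tested ligands. Of the 10 subunits, inhibitors and kinases, 4 were lowest in replicate 2, NFKB1, NFKBIA, IKBKB and CHUK, 6 in replicate 3, against 38% of all tested genes, and 0 in replicate 1, against 32.4%. This count was made after the values were seen, the genes of a list are not independent, and what it moved with was not tested.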

How the data were processed

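RNA of 3 control siRNA libraries was measured (TruSeq RNA kit, pairs of 100 bp reads, per the labels). The authors deposited unnormalized integer counts, 1 per RefSeq transcript record. FastQC, TopHat2, Cufflinks and hg19 are named in the submitters' processing notes; their versions, what counted the reads, whether by strand, and how multiply mapped reads were treated are not given in the sources used here. Of 42269 records, 6937 had no name and 6318 of these were matched by accession; the 619 others held 0.944% to 0.959% of the counts. Copies of a record on alternative haplotypes were summed, and a gene took its largest record. The 10 genes took only records that carry their symbol. TPM used GENCODE 29 transcript lengths, of the same record for 17822 of 18739 genes with a count and otherwise of the longest transcript of the gene; 98.8% had a length.

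Scaling was TMM and the filter filterByExpr in edgeR 4.0.16 (R 4.3.3), with size factors of DESeq2 1.42.0 as an alternative; pandas 2.3.3, numpy 2.4.6 and matplotlib 3.10.9 under Python 3.11.15 did the rest. The deviance test was tested on simulated counts drawn independently. Those lacked the counting of both mates of a pair, so they do not check the calls for it. With 1 group no contrast between groups exists. Nothing says that the biological replicates came from separate passages, so p values refer to these libraries alone. They set the spread between libraries against counting noise, so they depend on a gene's counts and do not rank genes by spread. Called genes are those at an adjusted p under 0.05.

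The 10 genes and the lists were chosen with earlier results of these data known. Named genes are the 10, the 3 highest and the lowest of each list, list genes called with a coefficient of variation of 0.05 allowed for, and the 3 nearest in level to NFKBIA and RELA. Others, such as TLR4, TNF and the genes lowest in replicate 2, were chosen after their values were seen. Alternatives covered scaling, filter, records, length, pseudocount (0.1 in place of 1), paired mates, allowed spread and each library left out. Those on GC content, on the shortest transcript, on paired mates with allowed spread, and on records matched by accession were chosen after seeing the data. A list of leukocyte markers is not reported here.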

Additional observations from a re-analysis of the deposited data

How the results depend on the processing

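The levels depended more on how a gene's length and records were taken than on which libraries were used. In CPM the differences in log2(level + 1) were RELA minus NFKB1 0.94, RELB minus NFKB2 -2.15, REL minus RELA -3.50, NFKBIA minus NFKBIB 2.93, NFKBIA minus NFKBIE 1.90, IKBKB minus CHUK -0.15, NFKBIA minus RELA -0.0776 (reversed), inhibitors minus subunits -1.11 and NFKB1, RELA and REL minus NFKB2 and RELB 0.37. With the counts of all records summed, which counts shared reads several times, they were RELA minus NFKB1 2.44, RELB minus NFKB2 -3.29, REL minus RELA -6.57, NFKBIA minus NFKBIB 1.65, IKBKB minus CHUK 1.248 (reversed), NFKBIA minus RELA -1.21 (reversed), inhibitors minus subunits -1.63 and the 2 routes 0.60. With the shortest transcripts they were RELA minus NFKB1 2.36 (2.365 unrounded), REL minus RELA -4.27, IKBKB minus CHUK 0.43 (0.425 unrounded, reversed), NFKBIA minus RELA -0.14 (reversed), inhibitors minus subunits -0.63 and the 2 routes 1.07. A pseudocount of 0.1 gave REL minus RELA -5.64. Leaving out each replicate kept every sign, with REL minus RELA from -5.08 to -5.04, NFKBIA minus RELA from 0.67 to 0.76 and IKBKB minus CHUK from -0.28 to -0.26.

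Of the 10 genes, 9 varied beyond counting noise, and of all genes 7654. With each pair counted once the number over all genes was 4117; with a coefficient of variation of 0.05 allowed for it was 0 of the 10 and 166 of all, with 0.1 it was 0 and 18, and with 0.05 and each pair counted once 0 and 8. Leaving out each replicate gave 5 to 8 of the 10 and 3571 to 5663 of all, with the fewest without replicate 3. Without replicate 3 RELA (adjusted p = 0.516), NFKBIB (0.797), IKBKB (0.388) and CHUK (0.783) lost the edgeR call, without replicate 2 NFKB1 (0.739), NFKBIB (0.0713) and CHUK (0.104) did, and without replicate 1 RELB did (0.349). The cause of these losses was not tested, and a fit on fewer libraries has less to go on. DESeq2 size factors gave 9 of the 10, beside 7658 of all 14468 genes tested. Without a filter and with records summed there were 8 each, and CHUK lost the edgeR call (adjusted p = 0.0734 and 0.05125). Over all genes tested, 8282 of 18739 varied without a filter and 9143 of 14655 with records summed. No paired analysis was possible because there is 1 group, so replicate numbers pair no libraries between groups; differences between genes were taken within each library. Depth limits the genes under about 100 counts, such as CCL20 and TNF, more than the 10 genes, of which REL had the fewest counts.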
